A study of Gallus gallus with 2 samples.

Results

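Cadherins and protocadherins were examined in the chick prosencephalon after Notch signalling had been blocked with DAPT. The genes were taken by symbol. A probe belonged to the group if its gene symbol in the deposited expression report started with CDH and a digit or with PCDH, and CDH5, the vascular endothelial cadherin, was left out. This gave 51 probes for 26 genes, of 29103 genes or unnamed accessions on the array, and each gene was read from its brightest probe. The 26 genes comprised 4 type I classical cadherins, 5 type II classical cadherins, 2 further cadherins (CDH13 and CDH17), 10 non-clustered protocadherins and 4 clustered protocadherins. The remaining symbol, CDH1-A, is described in the report as a fizzy-related protein homolog, and the RefSeq gene table names it FZR1. It encodes an activator of the ubiquitin ligase that drives exit from mitosis and is not a cadherin, so the family proper held 25 genes.

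Cadherins are membrane proteins that bind their like on neighbouring cells through calcium-dependent repeats. Type I and type II classical cadherins are tied to the actin cytoskeleton by catenins, and the set of cadherins a cell carries helps to decide which cells it stays with. In the neural tube E-cadherin gives way to N-cadherin as the neural plate forms, and type II cadherins and protocadherins then mark subdivisions of the brain wall and groups of young neurons. Non-clustered protocadherins are separate genes, whereas clustered protocadherins lie in arrays of related exons that give single neurons different surface identities. γ-secretase, the protease that DAPT inhibits, cuts the Notch receptor and also the membrane stumps of E- and N-cadherin, but the arrays measured transcripts and not protein.

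Isa Brown embryos were explanted at HH10 and grown in roller culture for 16 hours with 40 µM DAPT or with DMSO, the solvent that both conditions contained, to approximately HH13. The domain rostral to the mesencephalon, which contains the hypothalamic primordium, was dissected, and RNA of 5 pooled embryos was hybridized to each single-dye Agilent array. There were 4 DAPT arrays and 4 DMSO arrays. DAPT acted on the whole explanted embryo, each value is a mean over 5 embryos and all cell types of the dissected domain, and 1 dose and 1 time were tested. Each GEO sample holds the 4 arrays of 1 condition, and slide 1 carried arrays 1 and 2 of both conditions, slide 2 arrays 3 and 4. The study describes 4 sets of experiments but the labels do not tie an array to a culture, so the p-values measure the spread between these arrays, which may in part be technical.

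Median signals were 178 to 245 on the DAPT arrays and 198 to 354 on the DMSO arrays. Spots well above background made up 67.8% to 80.8% of the DAPT arrays and 74.4% to 78.7% of the DMSO arrays. No signal of the 26 genes was saturated on any array. Marker lists were read on the same arrays. HES5, NEFM, NHLH1, NHLH2 and TAGLN3 are among the genes the study reported as changed on these arrays. Their values here are therefore not an independent check of the drug. HES5, the direct Notch target, averaged −3.48 in DAPT forebrains, where 1 of 4 arrays was well above background, and 2.35 in DMSO forebrains. A level is the log2 signal minus the median of its array, so 0 is that median. Of 11 early neuron markers tested, 4 were called higher (NEFM, NHLH1, NHLH2 and TAGLN3) and 9 had an unadjusted p under 0.05, and the summed linear level of the list was 338 to 416 on the DAPT arrays and 167 to 226 on the DMSO arrays, in units of the array median. Summed levels of the other lists overlapped between the conditions, and 1 of 12 progenitor markers (HES5) and 0 of 11 surface ectoderm, 15 head mesenchyme and neural crest, 12 endothelial and 9 blood markers were called.

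None of the cadherin or protocadherin genes was called as changed by DAPT. A gene was tested if 1 condition or both had all 4 arrays well above background, and 22 of the 26 genes passed. The test was limma's, two-sided, with Benjamini-Hochberg adjustment over 31504 probes. Of these 22, 0 were called higher and 0 lower at an adjusted p under 0.05, against 0.108% and 0.0362% of 19362 genes tested. At an unadjusted p under 0.05, 1 gene was higher (PCDH9) and 1 lower (PCDH7), against 1.32% and 1.23% of all genes. In 1 gene, PCDH9, all DAPT arrays lay above all DMSO arrays, against 0.888% of all genes, and in 0 genes all lay below, against 0.945%. PCDH9 makes up both the higher count and the count without overlap. It passed the filter only through DAPT, the condition in which it was higher, and these counts do not allow for that selection. The smallest p that the exact permutation test can give with 4 arrays against 4 is 0.0286.

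The direction of the differences was split. Log2 fold changes were above 0 in 12 genes and below 0 in 10, against 47.4% of all genes above 0, and their median was 0.01, against −0.01 over all genes tested. At least 1.3-fold differences were seen in 2 genes higher (PCDH9 and PCDH17) and 2 lower (PCDH7 and CDH17), against 4.19% and 4.72% of all genes. Of these, PCDH9 and CDH17 each passed the filter only through the condition in which the gene was higher. The 95% intervals of 20 of the 22 genes spanned 0. They lay within 1 log2 unit of 0 on both sides in 14 genes and within 0.5 in 4. A 2-fold change was thus outside the interval for 14 genes and inside it for the other 8. These intervals come from the fit without a block for slide, so their width includes the difference between slides. With slide as a block the standard error went from 0.64 to 0.21 for PCDH10, from 0.45 to 0.18 for PCDH8 and from 0.56 to 0.27 for PCDHA6. In these pools fewer cells of a type and less RNA per cell cannot be told apart.

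With slide as a block, which removes the difference between slides from the error, the unadjusted counts were 2 higher (PCDH9 and PCDH17) and 2 lower (PCDH7 and CDH17), against 3.25% and 3.35% of all genes. A block on array number gave the same 4 genes, 2 higher and 2 lower, against 4.1% and 4.64%. The selection of PCDH9 and CDH17 by the filter applies to these counts too. Neither block gave a call in the group, against 0.362% of all genes called higher and 0.134% called lower with slide as a block and 0.449% and 0.253% with array number. Under the array number block the adjusted p was 0.172 for PCDH7, 0.215 for CDH17, 0.243 for PCDH9 and 0.380 for PCDH17, with limma over all probes tested.

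**Figure D1:**
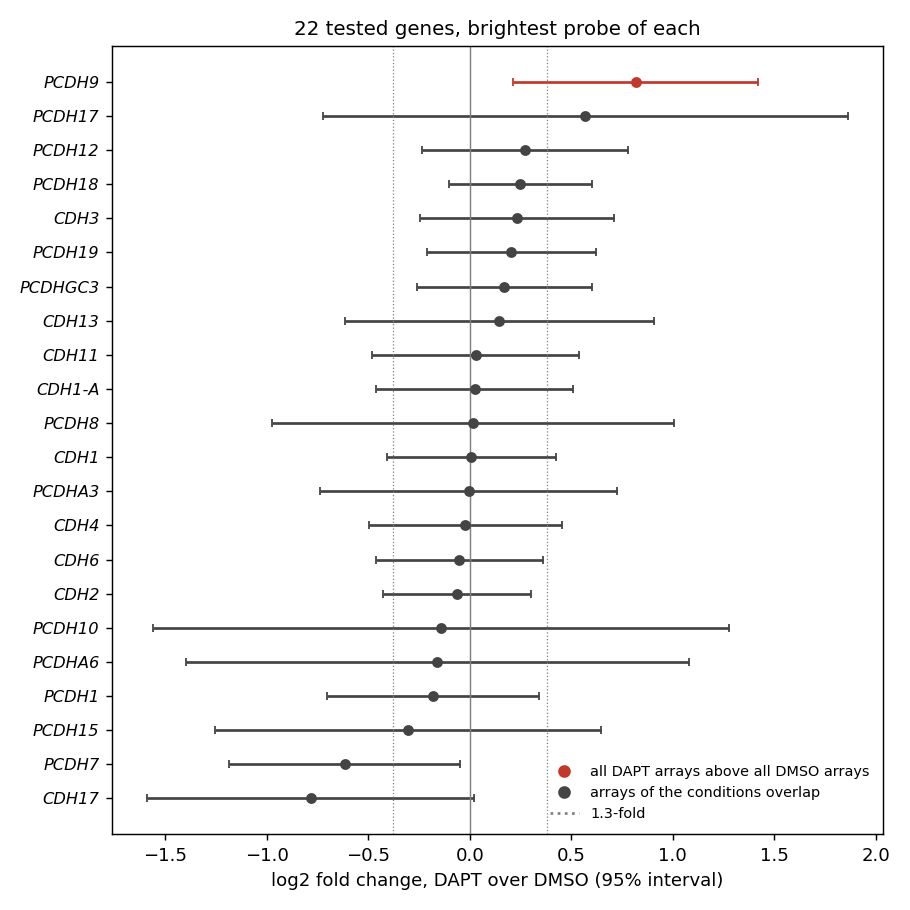
Log2 fold change of DAPT over DMSO with its 95% interval from limma without a block, for the 22 tested genes in order of size. PCDH9, in red, has all 4 DAPT arrays above all 4 DMSO arrays and an interval of 0.21 to 1.42, PCDH7 has an interval of −1.19 to −0.05, and the other 20 intervals cross 0.

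Type I classical cadherins were read on all 8 arrays, and their levels overlapped between the conditions. N-cadherin, CDH2, the main cadherin of the neural tube, had 6.59, 6.55, 6.67 and 6.66 on the DAPT arrays, against 6.47, 6.59, 6.87 and 6.78 on the DMSO arrays. It varied little between the 4 DAPT arrays, with 6.62 ± 0.06 (SD, n = 4). The DMSO arrays varied somewhat more, with 6.68 ± 0.18 (SD, n = 4). In both conditions the slide 2 arrays lay above the slide 1 arrays, so these spreads include the difference between slides. The log2 fold change of CDH2 was −0.06 ± 0.16 (SE) with an interval of −0.43 to 0.30, and its other probe gave −0.02. CDH1, CDH2, CDH4 and CDH6 were the 4 genes whose intervals lay within 0.5 log2 units of 0 on both sides. With normexp, a different background correction, CDH1, CDH2 and CDH4 gave −0.71, −0.72 and −0.66, each with an unadjusted p under 0.05 and adjusted p-values of 0.154 to 0.156 (limma), on a scale on which the median of all probes was −0.31.

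E-cadherin, CDH1, which joins the cells of the surface ectoderm and other epithelia, had 4.56, 4.67, 5.03 and 4.74 in DAPT forebrains, against 4.49, 4.64, 4.88 and 4.97 in DMSO forebrains. Its mean was nearly the same in both, and the log2 fold change was 0.01 ± 0.19 (SE) with an interval of −0.41 to 0.42. Its other 2 probes, both tested, gave 0.27 and 0.32, neither with an unadjusted p under 0.05. R-cadherin, CDH4, first known from the chick retina, had 3.47, 3.85, 3.16 and 3.02 on the DAPT arrays and 3.33, 3.50, 3.19 and 3.57 on the DMSO arrays. The DAPT values spread more widely and enclosed all 4 DMSO values, and the log2 fold change was −0.02 ± 0.21 (SE). The gene listed as CDH3, or P-cadherin, in the report had values of 0.47 to 0.84 in DAPT forebrains and 0.03 to 0.75 in DMSO forebrains, with a log2 fold change of 0.23 ± 0.21 (SE).

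Of the 5 type II cadherins 2 were tested. CDH6, which in the chick is carried by premigratory neural crest and by parts of the brain wall, had 0.07, 0.29, 0.31 and 0.53 on the DAPT arrays, against 0.08, 0.31, 0.60 and 0.41 on the DMSO arrays. The 2 sets covered nearly the same range, and the log2 fold change was −0.05 ± 0.18 (SE). CDH11, a cadherin of head mesenchyme and migrating crest, had 3.53, 3.88, 3.19 and 3.29 in DAPT forebrains and 3.55, 3.67, 3.60 and 2.95 in DMSO forebrains. DMSO array 4 stood below the other 3 DMSO arrays, and the log2 fold change was 0.03 ± 0.23 (SE), or −0.14 without that array. The other 2 probes of CDH11 gave 0.10 and 0.33.

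The other 3 type II genes did not have all 4 arrays well above background in either condition. CDH7, which marks migrating crest in the chick, was well above background on 3 of 4 DAPT arrays and 3 of 4 DMSO arrays, with −2.47, −1.83, −1.37 and −2.07 on the DAPT arrays against −2.68, −2.74, −1.67 and −1.75 on the DMSO arrays. CDH10 passed on 3 DAPT and 2 DMSO arrays, and CDH9 on 2 DAPT and 3 DMSO arrays. CDH9 was the most uneven gene of the group, with −0.09 and 0.28 on the slide 1 DAPT arrays and −3.86 and −3.99 on those of slide 2, against 0.49 and 0.20 on the slide 1 DMSO arrays and −2.61 and −3.10 on those of slide 2. Both conditions were high on slide 1 and low on slide 2. None of these 3 genes passed the filter on dim probes. The mitotic regulator CDH1-A ranged from −0.87 to −0.24 in DAPT forebrains and from −0.93 to −0.30 in DMSO forebrains, with a log2 fold change of 0.02 ± 0.22 (SE).

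**Figure D2:**
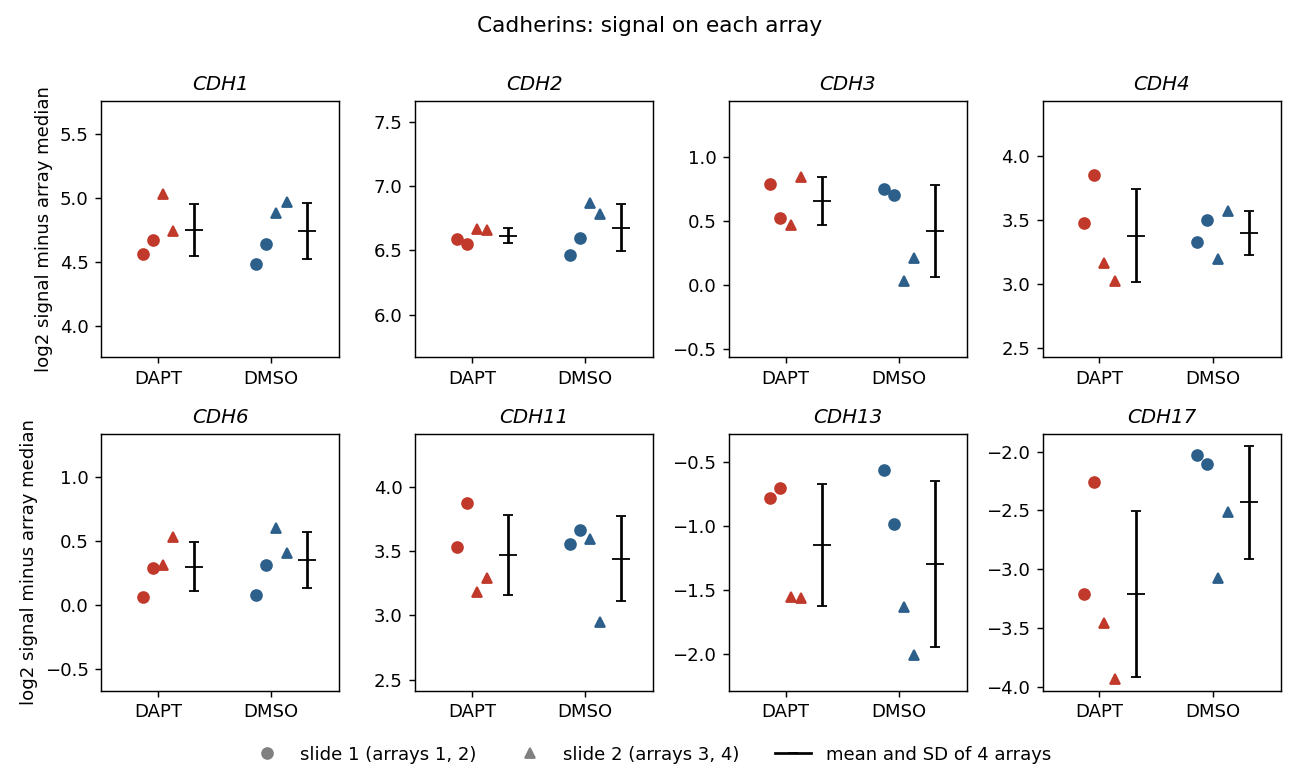
Log2 signal minus the array median for 8 cadherins, DAPT arrays in red and DMSO arrays in blue, with circles for slide 1, triangles for slide 2 and bars for the mean and SD of 4 arrays. The axes have different ranges. The conditions overlap in all 8 genes, and CDH13 and CDH17 lie lower on slide 2 within each condition.

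CDH13 and CDH17 lack the catenin-binding tail of the classical cadherins. CDH13, which is held in the membrane by a lipid anchor, had −0.78, −0.70, −1.55 and −1.56 on the DAPT arrays and −0.56, −0.98, −1.63 and −2.0 on the DMSO arrays. Both conditions split by slide, and the log2 fold change was 0.15 ± 0.34 (SE). Its second probe, dimmer and below the filter, gave −0.57. CDH17, the liver-intestine cadherin of mammals, had −3.21, −2.26, −3.46 and −3.94 in DAPT forebrains, against −2.03, −2.10, −3.08 and −2.51 in DMSO forebrains. Each DAPT array was below the DMSO array of the same number. Within each slide both DAPT arrays were below both DMSO arrays, but across slides the sets overlapped.

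The CDH17 signal was well above background on 0 of 4 DAPT arrays and on 4 of 4 DMSO arrays. The limit of detection differed between arrays. On DAPT array 2 CDH17 read −2.26 and did not pass, where the lowest passing signal was −2.13. On DMSO array 3 it passed at −3.08, where the lowest passing signal was −3.58. CDH17 thus passed the filter only through the condition in which it was higher, and its p-values do not take this selection into account. The mean of the DMSO arrays was 1.55-fold above a DAPT mean raised to a floor. That DAPT mean took, on each array, the higher of the probe's own signal and the lowest signal well above background. This value is not a lower bound. On DAPT array 1 the probe read −3.21, above that array's lowest such signal of −3.54, but was not well above background there. The interval of the fitted log2 fold change, −1.59 to 0.02, spanned 0. The fitted log2 fold change was −0.78 ± 0.36 (SE), with an unadjusted p of 0.0548 (limma), an adjusted p of 1.0 and an exact permutation p of 0.114. The slide 1 arrays differed by −0.67 and the slide 2 arrays by −0.90. The log2 fold change was 0.49 with another background correction (normexp), so the direction of this dim probe depended on how the background was removed. The gene has 1 probe in the report.

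Among the non-clustered protocadherins, PCDH9 was the one gene in which the conditions did not overlap. This protocadherin is known from the developing nervous system of the mouse. It had −2.04, −1.30, −1.22 and −2.23 on the DAPT arrays, against −2.48, −2.95, −2.32 and −2.30 on the DMSO arrays. All DAPT values were above all DMSO values, although DAPT array 4 cleared the highest DMSO array by a narrow margin. The means were −1.70 ± 0.51 in DAPT forebrains and −2.51 ± 0.30 in DMSO forebrains (SD, n = 4 each). The log2 fold change of PCDH9 was 0.82 ± 0.27 (SE), or 1.76-fold, with an unadjusted p of 0.0131 and an adjusted p of 1.0 (limma). The exact permutation p was 0.0286, the smallest that 4 against 4 arrays allow.

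PCDH9 was higher on both slides, by 1.05 on slide 1 and 0.59 on slide 2, and the interaction of slide and condition had an unadjusted p of 0.378 (limma). Leaving out 1 array at a time gave 0.66 to 0.99, each with an unadjusted p of 0.0417 or less. On slide 2 alone the unadjusted p was 0.102. The signal was dim, with 4 of 4 DAPT arrays and 3 of 4 DMSO arrays well above background, and the gene has 1 probe in the report. PCDH9 thus passed the filter only through the condition in which it was higher, and its p-values do not take this selection into account. A further probe without a symbol, described as similar to protocadherin-9 and looked up after these values had been seen, was well above background on 1 DAPT array and 0 DMSO arrays. It had −2.95, −3.14, −3.49 and −5.67 on the DAPT arrays and −3.13, −2.93, −4.09 and −4.68 on the DMSO arrays, with no separation of the conditions at this low signal. Of the 11 early neuron markers 10 were above 0 and 1, TUBB3, was below at −0.17. In 8 of 11 all 4 DAPT arrays lay above all 4 DMSO arrays, against 0.888% of all genes. The part of early neurons in the PCDH9 values was not tested.

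PCDH7 was the gene with the lowest unadjusted p in the other direction. Its frog relative holds together cells of the embryonic ectoderm. PCDH7 had 0.69, 0.58, 0.23 and −0.14 in DAPT forebrains, against 1.29, 0.87, 1.22 and 0.44 in DMSO forebrains. Each DAPT array was lower than the DMSO array of the same number. Within each slide both DAPT arrays were below both DMSO arrays. Across slides the groups overlapped, because DMSO array 4, of slide 2, lay below the 2 highest DAPT arrays, which were of slide 1. The means were 0.34 ± 0.38 in DAPT forebrains and 0.96 ± 0.39 in DMSO forebrains (SD, n = 4 each). The log2 fold change of PCDH7 was −0.62 ± 0.26 (SE), with an unadjusted p of 0.0366 and an adjusted p of 1.0 (limma) and an exact permutation p of 0.0857. The difference within slide 1 was −0.44, and within slide 2 −0.79. With slide as a block the unadjusted p was 0.0101 and the adjusted p 0.510 (limma).

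Single arrays were left out in the fit without a block. There the unadjusted p of PCDH7 went above 0.05 without DAPT array 3 or 4, or without DMSO array 1, 2 or 3. Those p-values were 0.0541 to 0.111 (limma), while the log2 fold change stayed between −0.79 and −0.45. The second PCDH7 probe gave −0.57, but it was well above background on 1 DAPT array and 3 DMSO arrays only. Of 11 surface ectoderm markers 1, GRHL3, had all DAPT arrays below all DMSO arrays, against 0.945% of all genes. It had 0.38, 0.18, 0.28 and 0.01 in DAPT forebrains against 0.48, 0.49, 1.07 and 0.95 in DMSO forebrains. The GRHL3 difference was −0.54 on the log2 scale and was not called (limma, adjusted p 1.0). Over the list 6 markers were above 0 and 5 below, with a median of 0.08. Among the epithelial ones KRT8 and TP63 gave 0.23 each, whereas KRT14 gave −0.35 and KRT19 −0.46. KRT19 is the symbol of the report, and the RefSeq gene table names that gene KRT24. The summed level of that list was 258 to 394 on the DAPT arrays and 292 to 401 on the DMSO arrays. Whether surface ectoderm had a part in the PCDH7 values was not tested.

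PCDH17, which in the mouse is found on growing axons and at synapses, had −0.38, −0.27, −1.75 and −1.46 on the DAPT arrays, against −0.48, −0.46, −2.84 and −2.35 on the DMSO arrays. The 2 slides differed by 1.70 in this probe, and within each slide both DAPT arrays were above both DMSO arrays. Slide 1 gave a difference of 0.15 and slide 2 one of 0.99. Without a block the log2 fold change was 0.57 ± 0.58 (SE), with an unadjusted p of 0.349, and with slide as a block its SE was 0.20 and its unadjusted p 0.0153 (limma, adjusted p 0.583). The interaction of slide and condition had an unadjusted p of 0.0265 and an adjusted p of 1.0. The other 2 probes of PCDH17, both tested, gave 0.18 and 0.39, so that the 3 probes agreed in sign. With array weights the value of the brightest probe was −0.23.

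PCDH18 had 3.28, 3.08, 3.28 and 3.04 in DAPT forebrains, against 2.85, 2.90, 3.04 and 2.88 in DMSO forebrains. The lowest DAPT array and the highest DMSO array were level to 2 decimals, and the sets met there without a gap. The log2 fold change was 0.25 ± 0.16 (SE), with an unadjusted p of 0.147 (limma) and an exact permutation p of 0.0571. All 3 probes of PCDH18 gave values above 0, of 0.21, 0.25 and 0.47. With the normexp background correction the brightest probe gave −0.40, on a scale on which the median of all probes was −0.31.

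PCDH19, which works together with N-cadherin during neural tube formation in zebrafish, had 1.87, 1.91, 1.83 and 2.02 on the DAPT arrays and 1.96, 1.88, 1.31 and 1.66 on the DMSO arrays. The DAPT arrays were close together and the DMSO arrays of slide 2 were low, and the log2 fold change was 0.21 ± 0.19 (SE). The other 2 probes gave −0.08 and −0.17, so the probes of this gene disagreed in sign. PCDH10, which guides axons of the forebrain in the mouse, had −0.41, −0.59, −3.08 and −2.07 in DAPT forebrains and −0.49, −0.62, −2.39 and −2.09 in DMSO forebrains. PCDH8, a relative of the frog paraxial protocadherin, had −0.53, −0.44, −2.17 and −1.50 in DAPT forebrains and −0.62, −0.56, −2.01 and −1.51 in DMSO forebrains. Both were high on slide 1 and low on slide 2 whatever the treatment. Their log2 fold changes were −0.14 ± 0.64 and 0.02 ± 0.45 (SE), and the intervals, −1.56 to 1.28 and −0.97 to 1.01, were among the widest of the group. With slide as a block the SE was 0.21 for PCDH10 and 0.18 for PCDH8.

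PCDH1 had −2.15, −3.06, −2.65 and −2.28 on the DAPT arrays and −2.61, −2.34, −2.44 and −2.03 on the DMSO arrays. It was near the limit of detection, with 3 DAPT and 4 DMSO arrays well above background and a log2 fold change of −0.18 ± 0.24 (SE). PCDH12, the protocadherin of blood vessel endothelium, ranged from −1.27 to −0.68 in DAPT forebrains and from −1.60 to −0.82 in DMSO forebrains. Its 2 probes gave log2 fold changes of 0.27 and 0.40. A brighter probe without a symbol, described as a protocadherin-12 precursor, averaged 2.43 in DAPT and 2.29 in DMSO forebrains. That probe gave 0.14, with an unadjusted p of 0.474 (limma). PCDH15, a part of the tip link of inner ear hair cells, ranged from −1.33 to 0.29 on the DAPT arrays and from −1.17 to 0.31 on the DMSO arrays, with −0.30 and −0.14 from its 2 probes. None of these 3 genes had an unadjusted p under 0.05. Of 12 endothelial markers, 9 were above 0 and 3 below, with a median of 0.26. Their summed level was 69.8 to 88.2 on the DAPT arrays and 65.4 to 96.5 on the DMSO arrays. In this list LMO2 gave 1.05 and FLT1 −0.74, each without overlap of the arrays, against 0.888% of all genes higher and 0.945% lower. Neither was called, as 0 of the 12 were. The part of endothelium in the PCDH12 values was not tested.

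**Figure D3:**
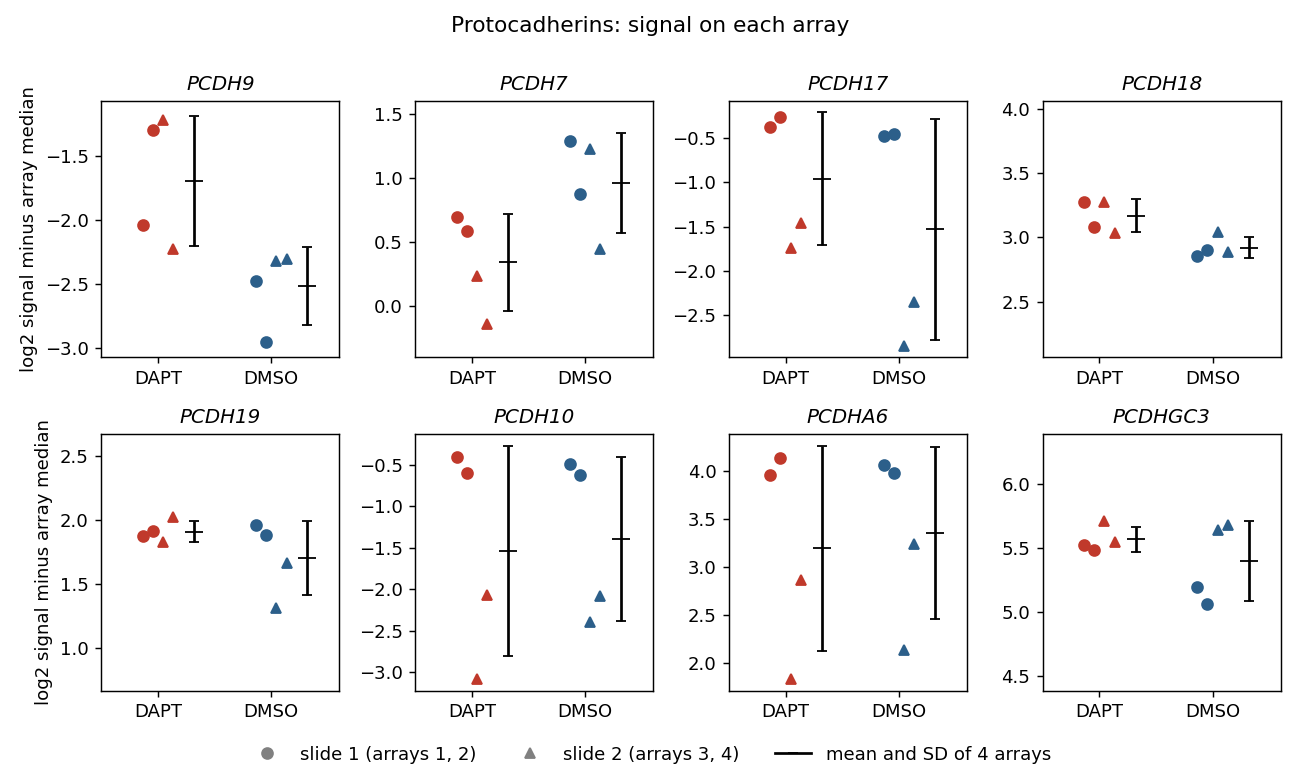
Log2 signal minus the array median for 8 protocadherins, DAPT arrays in red and DMSO arrays in blue, with circles for slide 1, triangles for slide 2 and bars for the mean and SD of 4 arrays. The axes have different ranges. PCDH9 is the only one of these 8 in which all DAPT arrays lie above all DMSO arrays, and PCDH17, PCDH10 and PCDHA6 lie lower on slide 2 in both conditions.

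Clustered protocadherins did not separate the conditions. PCDHGC3, of the constant-type gamma genes, ranged from 5.48 to 5.71 in DAPT forebrains and from 5.07 to 5.68 in DMSO forebrains. Its log2 fold change was 0.17 ± 0.19 (SE), with 0.37 on slide 1 and −0.03 on slide 2. PCDHA6 ranged from 1.83 to 4.13 on the DAPT arrays and from 2.14 to 4.06 on the DMSO arrays. PCDHA3 ranged from 0.83 to 1.47 on the DAPT arrays and from 0.03 to 1.53 on the DMSO arrays. Their log2 fold changes were −0.16 ± 0.56 and −0.01 ± 0.33 (SE), and the second probe of each also gave a value below 0. PCDHB4 was well above background on 2 DAPT and 0 DMSO arrays and was not tested. The exons of a cluster are near-identical in parts, so a probe of an alpha or gamma gene can also read its neighbours.

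Slides differed more than conditions in most of these genes. The mean of slide 2 minus that of slide 1 was larger in size than the difference between DAPT and DMSO in 18 of the 22 tested genes, as it was in 15620 of all 19362 genes. The median size was 0.41 for slides in the 22 genes, against 0.40 over all genes, and 0.16 for conditions, against 0.11. In 7 of the 22 genes all slide 2 arrays lay below all slide 1 arrays, compared with 13.6% of all probes tested, and in 4 they lay above, compared with 25.5%. Slide differences of more than 1 log2 unit were found in 4 genes (PCDH10, PCDH17, PCDHA6 and PCDH8), with −1.88, −1.70, −1.51 and −1.26, against 9.12% of all probes. The 2 slides were scanned at different times and signals on slide 1 reached saturation while those on slide 2 did not, so slide and scan cannot be told apart.

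The size of the slide difference could vary between probes of a gene. For PCDH17 the 3 probes, all tested, gave −1.70, −0.50 and 0.23. For PCDH8 it was −1.26 in the brightest probe and 1.6 in the other, which was dim and below the filter. For PCDH10 the values were −1.88 and 0.17, the second again from a dim probe below the filter. N-cadherin and E-cadherin differed by 0.20 and 0.32 in their brightest probes, with slide 2 higher in both.

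**Figure D4:**
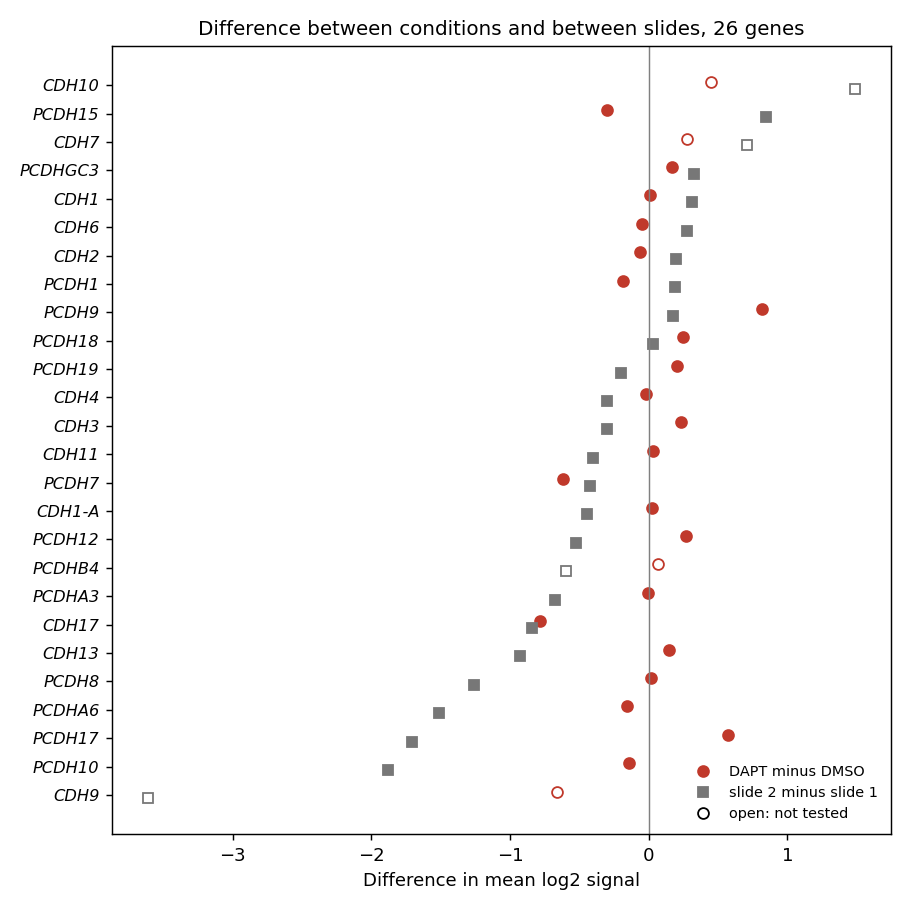
Difference in mean log2 signal between conditions (DAPT minus DMSO, red circles) and between slides (slide 2 minus slide 1, grey squares) for all 26 genes, ordered by the slide difference. Open symbols are the 4 genes that were not tested. CDH9 has the largest slide difference of the 26 at −3.61, and in 18 of the 22 tested genes the square lies farther from 0 than the circle.

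Of the 20 genes with more than 1 probe, all probes of a gene had differences of the same sign in 16. The exceptions were CDH4, CDH6, CDH13 and PCDH19. This count takes probes below the filter too. CDH7 and PCDHB4 had 0 tested probes, and CDH13, PCDH1, PCDH7, PCDH8, PCDH10 and PCDHA6 had 1 each. The same share over all genes with several probes was not computed. The 3 probes of CDH1, CDH11, PCDH17 and PCDH18 were each above 0. In the fit without a block, no member other than PCDH7 and PCDH9 had a probe with an unadjusted p under 0.05. Probes of 1 gene share the same RNA and are not replicates.

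**Figure D5:**
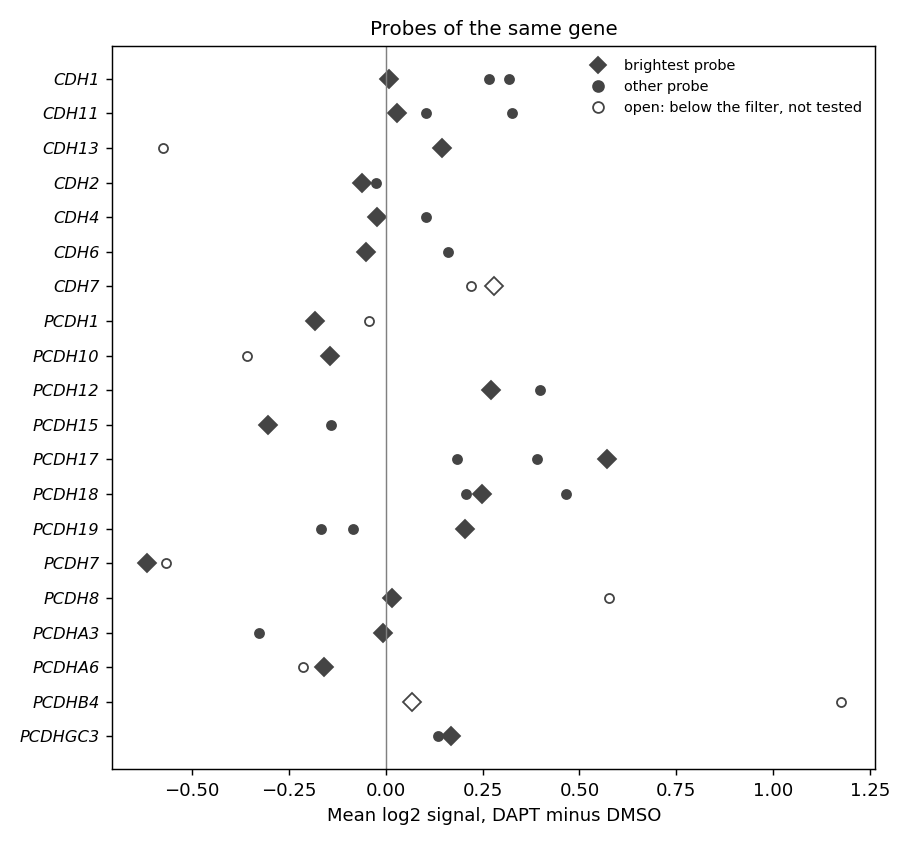
Mean log2 signal of DAPT minus DMSO for every probe of the 20 genes with 2 or 3 probes. Diamonds are the brightest probe of a gene, circles the others, and open symbols probes below the filter. PCDH7 has both probes near −0.6, PCDH17 and PCDH18 have all 3 above 0, and the dim second probe of PCDHB4 is at 1.17.

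In the RefSeq gene order several members are neighbours. PCDH9, PCDH17 and PCDH8 lie in this order with 4 and 2 protein-coding genes between them, and their log2 fold changes were 0.82, 0.57 and 0.02. CDH3 and CDH1 are adjacent and gave 0.23 and 0.01. PCDH10 and PCDH18 are adjacent and gave −0.14 and 0.25. CDH6, CDH9 and CDH10 lie together, and 1 of these 3 was tested.

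A further 37 probes were described as cadherins or protocadherins, or named so through RefSeq, without a symbol that the rule takes. Of these, 17 were tested, 0 had an unadjusted p under 0.05 and their log2 fold changes ran from −0.40 to 0.35. CDH8 and CDH20, type II cadherins that mark divisions of the chick brain at later stages, were well above background on 0 arrays in each of their probes, and the same held for PCDHAC2. CDH23, another tip link protein, gave 0.35. A gammaA-like protocadherin without a symbol had 4.93, 4.92, 4.91 and 4.68 on the DAPT arrays, against 4.56, 4.45, 4.67 and 4.94 on the DMSO arrays, with a log2 fold change of 0.20. CDH5, left out by the rule, gave −0.41.

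Genes that act with cadherins were counted from lists chosen for their function. Of 15 catenins and junction partners tested, of 23 listed, 0 were called and 0 had an unadjusted p under 0.05, with 6 above and 9 below 0 and a median of −0.08. Of 8 other cadherin superfamily genes tested (CELSR3, CLSTN1, CLSTN2, CLSTN3, DSC2, DSG2, FAT1 and FAT3), of 25 listed, 0 were called and 0 had an unadjusted p under 0.05, with 3 above and 5 below 0 and a median of −0.04. Of 8 transcriptional repressors of cadherin genes, such as SNAI2 and ZEB2, 0 were called, with 4 above and 4 below 0 and a median of 0.05. Of 8 genes for cadherin shedding and intramembrane cleavage, 0 were called and 1 had an unadjusted p under 0.05, with a median of 0.16. That gene, ADAM33, named after its values were seen, gave 0.48, and its arrays overlapped between the conditions. The median over all genes tested was −0.01, and 0.108% and 0.0362% of them were called higher and lower.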

How the data were processed

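Total RNA from chick prosencephalons was measured on 8 Agilent 4x44K arrays. The authors deposited, for each array, the intensity values that Agilent Feature Extraction (10.7.1.1 per the file headers) gives after background correction, with no normalization between arrays. A deposited report gives each condition's mean raw intensity and mean log2 signal after a 50th percentile shift, and the authors' own log2 and signed fold changes. Gene symbols came from that report, and none of its fold changes was used. Of the per-sample columns, 0 were left unmapped.

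Signals were processed in R 4.3.3 (limma 3.58.1). Control spots and spots marked as outliers (13 to 44 per array) were left out, saturated spots were kept, repeated spots of a probe were combined as the mean of log2 signals, and each array's 50th percentile was subtracted. The filter kept a probe when either condition had all 4 arrays well above background. DAPT was compared with DMSO by lmFit and eBayes, two-sided, without a block, with Benjamini-Hochberg adjustment over 31504 probes, and by a two-sided exact permutation test over 70 splits. Genes were represented by the brightest probe, and names came from the report (23721 probes) or by accession from RefSeq (1552 probes, GRCg7b). A further 47 symbols read as dates. No positions are given, since the assembly behind the array design is an older one. Probe, protein and promoter sequences were not used here. Figures were drawn with matplotlib 3.10.9 and pandas 2.3.3. The number of arrays limits the precision.

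Arrays of both conditions carry the numbers 1 to 4, read from the array names. After centring each probe, same-numbered DAPT and DMSO arrays correlated at 0.679, 0.569, 0.767 and 0.505 across probes, and different-numbered arrays on 1 slide at 0.419 to 0.675. With the slide mean removed the values were 0.0489 on slide 1 and 0.356 on slide 2. The number was used as a block in an alternative, and slide in another.

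On simulated data the fit recovered 37 of 105 probes changed 2-fold and 81 of 95 changed 4-fold, of 31390 probes, with 8 false calls. The simulated noise was drawn independently for each probe and array, without the difference between slides seen on the real arrays. These counts therefore need not hold for the real arrays. Values are given for each array for genes with an unadjusted p under 0.05 or without overlap, and for a list of genes known from the embryonic nervous system and head. The genes and lists were chosen with earlier results of these data known. The alternatives were another percentile, quantile normalization, normexp background correction with offset 50 on median signals, other filters, both blocks, array weights, kept outlier spots, a mean over probes, each slide alone and leaving out each array.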

Additional observations from a re-analysis of the deposited data

Results flagged for a closer look

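One value stood far from its group. For CDH11 in DMSO forebrains, the value of 2.949234 on array 4 (2.95) lay below the nearest of the other 3 DMSO arrays (3.55) by 0.839 of the range of the group, above the limit of Dixon's test for 4 values. It was 1 of 52 groups examined, and chance alone marks about 1 in 20. The 2 other probes of CDH11 had 3.71 and 1.41 on the same array, within or above the range of the other DMSO arrays. Without this array the log2 fold change of CDH11 was −0.14.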

How the results depend on the processing

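In every alternative run, 0 members were called in either direction. Of the group counts and medians under these alternatives, 33 moved by more than 1.5 times or by more than their spread. At an unadjusted p under 0.05 the main counts were 1 gene higher and 1 lower. The lower count was 0 with the 75th percentile and on slide 1 alone, and 4 with normexp. It was 2 with quantile normalization, on slide 2 alone, with slide or array number as a block and with array weights. The higher count was 0 with the filter on all 8 arrays, which removes PCDH9, and 2 with normexp, either block and array weights. At 1.3-fold the main counts were 2 higher and 2 lower. Normexp gave 7 and 8, array weights 1 and 5 and the filter on all 8 arrays 1 and 1, and the higher count was 1 on slide 1 alone and 4 on slide 2 alone. The cause of these shifts was not tested, except that normexp moved the median of all probes to −0.31. Array weights moved it to 0.04. Leaving out 1 array gave 0 to 0 called in both directions, 1 to 1 higher and 0 to 2 lower at an unadjusted p under 0.05, 1 to 3 higher and 2 to 4 lower at 1.3-fold, and medians of −0.04 to 0.13. The array number block changed no call.

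Signs of single log2 fold changes turned in 67 of the alternative values, and PCDH7, PCDH9 and PCDH12 kept theirs throughout. Normexp gave −0.71 for CDH1, −0.48 for CDH11, 0.49 for CDH17, 0.58 for PCDH1, 0.46 for PCDH10, −0.40 for PCDH18, −0.18 for PCDH19 and −0.43 for PCDHGC3. Array weights gave −0.16 for CDH1-A, −0.11 for CDH11, −0.20 for CDH13, 0.030 for CDH2, 0.057 for CDH6, 0.069 for PCDH15, −0.23 for PCDH17 and −0.39 for PCDH8. Slide 1 alone gave −0.10 for CDH1-A, 0.039 for CDH2, −0.068 for CDH3, 0.24 for CDH4, 0.050 for PCDH10, 0.17 for PCDH15, −0.027 for PCDH19 and 0.023 for PCDHA6. Slide 2 alone gave −0.036 for CDH1, −0.036 for CDH11, −0.073 for PCDH8, 0.27 for PCDHA3 and −0.033 for PCDHGC3. The mean over probes gave 0.041 for CDH4, 0.055 for CDH6 and −0.016 for PCDH19, and the 75th percentile 0.0030 for PCDHA3. Leaving out 1 array at a time, the sign turned for 11 genes, with ranges of −0.086 to 0.082 for CDH1, −0.091 to 0.13 for CDH1-A, −0.14 to 0.12 for CDH11, −0.092 to 0.39 for CDH13, −0.13 to 0.0014 for CDH2, −0.18 to 0.096 for CDH4, −0.14 to 0.032 for CDH6, −0.52 to 0.37 for PCDH10, −0.26 to 0.35 for PCDH8, −0.34 to 0.16 for PCDHA3 and −0.56 to 0.29 for PCDHA6.

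In the fit without a block, the median standard error was 0.23 over the 22 genes and 0.24 over all probes. Single genes with smaller differences were not resolved with 4 arrays per condition, and larger differences were not all resolved either. The interval of PCDH18, at 0.25, ran from −0.10 to 0.60. PCDH7 at −0.62 and PCDH9 at 0.82 were not called. The other 4 genes were too dim to test. Normexp on mean signals was not run, because the scanner files used here carry no column of mean signals. Median signals took their place, a choice made after the files were seen.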
